A study of Mus musculus with 12 samples.

Results

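The TAM receptors MERTK, AXL and TYRO3, their ligands GAS6 and PROS1, the galectins LGALS1, LGALS3, LGALS8 and LGALS9 and the galectin-3 binding protein LGALS3BP were examined by bulk RNA-seq of injured mouse spinal cord. These 10 genes were chosen by name as a receptor, ligand and lectin family, with their values in the data already known. They were then looked up by symbol among the 13957 genes that had a value at either site. All 10 were listed above the lesion and 9 were listed below it, where TYRO3 had no value. The values of both groups that led to their choice are therefore given as a description. The tissue came from male mice that express human ApoE4 and were either synj1+/+ or synj1+/-. Synj1 encodes synaptojanin 1, a phosphatase that removes phosphates from the membrane lipid PIP2. At 4 months of age all mice received a contusion of the spinal cord at thoracic vertebra 9, and RNA was taken 14 days later from short segments above and below the lesion. The 12 libraries made 4 groups of 3, namely synj1+/+ above, synj1+/- above, synj1+/+ below and synj1+/- below. All groups carried ApoE4 and the injury, and no uninjured or ApoE3 library was analysed here. The labels limit neither genotype to a cell type, and do not say whether segments above and below came from the same mice.

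TAM receptors are receptor tyrosine kinases found on microglia, macrophages, astrocytes and other cells that clear debris. The secreted proteins GAS6 and PROS1 carry a vitamin K-dependent domain that binds phosphatidylserine, the lipid exposed on dying cells and on shed myelin, and so bridge the dying cell to the receptor. Receptor signalling then drives engulfment and damps inflammatory cytokine signalling. Galectins bind sugar chains ending in beta-galactoside on surface glycoproteins and on damaged lysosomes. LGALS3 is made in quantity by activated microglia and by macrophages and is known as a marker of phagocytes in injured cord, and LGALS3 can itself act as a ligand of MERTK.

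Expression was given as FPKM (fragments normalised to transcript length and sequencing depth). The table held 1 FPKM value for each gene, site and genotype, which combined the 3 libraries of the group. Neither a spread between libraries nor a standard error or test can be computed from these combined values, and the p-values of the authors' own comparison were not used, so no difference is set here against the variation between mice. Ratios have the group labelled synj1+/- on top, as log2 of the ratio of FPKM plus 1, and a difference of at least 1.5-fold was counted. FPKM in this table rose with the number of annotated transcript models of a gene, so levels are compared between groups within a gene and not between genes. SYNJ1 was 1904 FPKM in the group labelled synj1+/+ and 2403 FPKM in the group labelled synj1+/- in the segment above. Below the lesion SYNJ1 was 1846 and 2592 FPKM. These values, with log2 ratios of 0.34 and 0.49, run against the labels, and every direction below rests on those labels. APOE was 766 and 548 FPKM above (log2 ratio -0.48) and 476 and 563 FPKM below (log2 ratio 0.24). The mice express human ApoE4, but reads were aligned to the mouse genome. How far these APOE values count the human transcript is not known, so they are not read as its level.

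Promoter sequences of MERTK, AXL and LGALS3 are shown because MERTK and LGALS3 were among the genes past 1.5-fold below the lesion, and AXL is the other TAM receptor listed at both sites. The reference promoters of RefSeq (GRCm38.p6) covered 9 of the 10 genes. LGALS1 had no entry. The bases up to the transcription start are given 5′ to 3′ on the strand of the gene, and stop where an annotated exon begins. The MERTK sequence is chr2:128698665-128698914 on the plus strand. That of AXL is chr7:25788734-25788983 on the minus strand. That of LGALS3 is chr14:47373610-47373812 on the plus strand, inside an intron of a longer LGALS3 transcript. Capitals mark matches on either strand to the GC box GGGCGG, the CCAAT box CCAAT and the core GAGGAA, which is a core that ETS factors such as PU.1 can bind.
MERTK: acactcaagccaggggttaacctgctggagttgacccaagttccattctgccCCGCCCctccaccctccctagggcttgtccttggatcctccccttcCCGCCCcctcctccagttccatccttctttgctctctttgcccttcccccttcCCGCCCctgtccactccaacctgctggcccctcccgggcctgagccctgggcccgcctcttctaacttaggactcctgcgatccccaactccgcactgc
AXL: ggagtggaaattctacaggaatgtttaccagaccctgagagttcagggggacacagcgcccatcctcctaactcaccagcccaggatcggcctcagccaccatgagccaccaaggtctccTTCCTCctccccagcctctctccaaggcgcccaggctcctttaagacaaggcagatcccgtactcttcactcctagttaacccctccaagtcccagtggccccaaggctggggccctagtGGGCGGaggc
LGALS3: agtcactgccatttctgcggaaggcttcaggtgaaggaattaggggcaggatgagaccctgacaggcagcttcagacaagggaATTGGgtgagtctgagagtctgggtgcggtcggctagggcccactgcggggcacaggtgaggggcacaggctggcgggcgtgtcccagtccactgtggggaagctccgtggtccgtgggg
The 250 bases of MERTK held 3 GC boxes, all on the strand opposite to the gene, and no CCAAT box or GAGGAA. The 250 bases of AXL held 1 GC box and 1 GAGGAA. The 203 bases of LGALS3 held 1 CCAAT box and no GC box. None of the 3 held the TATA box TATAAA. Among 32841 mouse promoters, 32.7% held a GC box in the same 250 bases and 23.3% held GAGGAA. In the 203 bases farthest from the start, 28.9% of promoters held a CCAAT box. The capitals mark letters only, and no binding was measured.

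Of the TAM receptors listed at each site, MERTK had the largest difference between the genotypes. MERTK is the receptor that phagocytes use to take up apoptotic cells and myelin debris, and lies at chr2:128698956-128802894 on the plus strand. Above the lesion MERTK was 24.8 FPKM in the group labelled synj1+/+ and 17.3 FPKM in the group labelled synj1+/-. In the segment below, MERTK was 32.7 and 20.3 FPKM. The group labelled synj1+/- was thus the lower at both sites, at 0.709 of the other group above and 0.631 of it below on the FPKM plus 1 scale. The log2 ratios were -0.50 and -0.66. Of the 13647 genes listed above, 395 had a lower ratio than MERTK, and of the 12338 listed below, 406 did.

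AXL, a receptor that is induced by inflammatory signals and binds GAS6 most tightly, showed smaller differences in the same direction. AXL (chr7:25757273-25788705, minus strand) was 189 FPKM in the group labelled synj1+/+ and 160 FPKM in the group labelled synj1+/- in the segment above. Below the lesion AXL was 224 and 181 FPKM. The log2 ratios were -0.24 and -0.30, and neither reached 1.5-fold. TYRO3, the TAM receptor most often found on neurons and oligodendrocytes, lies at chr2:119797733-119818104 on the plus strand. TYRO3 was 95.9 and 92.3 FPKM above the lesion, with a log2 ratio of -0.06. The 3 receptors were therefore ordered MERTK, AXL and TYRO3 by the size of the difference above, and MERTK and AXL kept that order below.

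The ligands lay between MERTK and TYRO3. GAS6, which binds all TAM receptors, was 40.6 FPKM in the group labelled synj1+/+ and 35.6 FPKM in the group labelled synj1+/- in the segment above. Below the lesion GAS6 was 47.1 and 41.1 FPKM, and the log2 ratios of -0.18 and -0.19 differed by less than 0.01 between the sites. PROS1, protein S, which binds MERTK and TYRO3 and is also a blood anticoagulant, was 54.3 and 43.9 FPKM above and 56.4 and 44.8 FPKM below. Its log2 ratios were -0.30 and -0.33. Both ligands were lower in the group labelled synj1+/- at both sites, and neither reached 1.5-fold. GAS6 (chr8:13465374-13494490, minus strand) shares exon bases with TMEM255B on the opposite strand. The library kit does not mark strand, so reads in the shared bases cannot be told apart. PROS1 lies at chr16:62854307-62929346 on the plus strand.

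**Figure D1:**
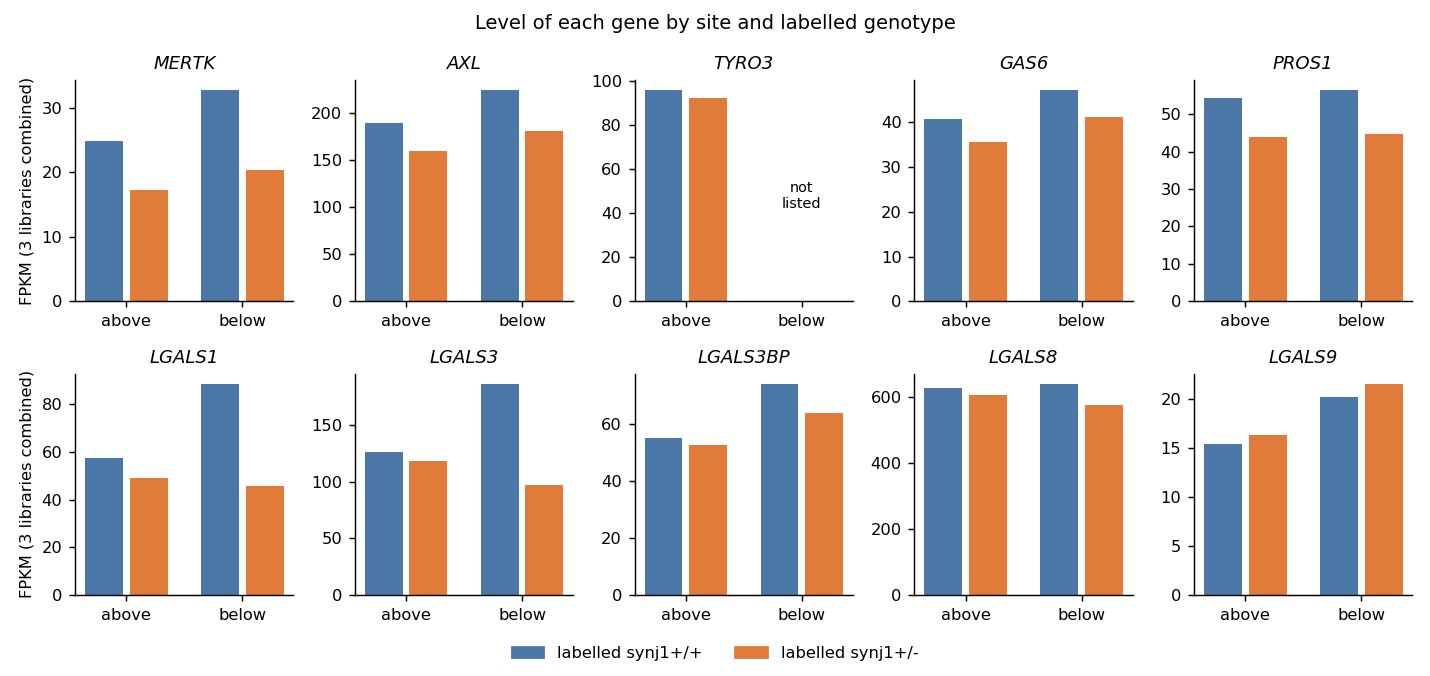
FPKM of the 10 genes by site (x axis) in the groups labelled synj1+/+ (blue) and synj1+/- (orange), each bar 1 value that combines 3 libraries, with an axis per gene that starts at 0 and no error bar because no single-library value was given. LGALS1 and LGALS3 are highest in synj1+/+ below the lesion, MERTK is lower in synj1+/- at both sites, and TYRO3 has no value below.

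LGALS1 and LGALS3 differed between the groups mainly below the lesion. LGALS3 is galectin-3, a lectin of activated phagocytes that also gathers on damaged lysosomes. Above the lesion LGALS3 was 126 FPKM in the group labelled synj1+/+ and 118 FPKM in the group labelled synj1+/-. In the segment below, LGALS3 was 186 and 97.3 FPKM. The log2 ratio was -0.09 above and -0.93 below, which as plain ratios of FPKM plus 1 are 0.938 and 0.525. Of the 12338 genes listed below, 195 had a lower ratio than LGALS3, against 4113 of the 13647 listed above. LGALS3 lies at chr14:47367751-47386160 on the plus strand.

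LGALS1, galectin-1, is a dimeric lectin made by fibroblasts, endothelial cells, astrocytes and macrophages. LGALS1 (chr15:78926725-78930465, plus strand) was 57.5 FPKM in the group labelled synj1+/+ and 49.0 FPKM in the group labelled synj1+/- in the segment above. Below the lesion LGALS1 was 88.4 and 45.7 FPKM. The log2 ratios were -0.23 and -0.94, and 188 of the 12338 genes listed below had a lower ratio. The ratio below minus the ratio above was -0.71 for LGALS1 and -0.84 for LGALS3 on the log2 scale. It was -0.17 for MERTK, and for the other 6 genes listed at both sites it lay between -0.15 and 0.00. Whether the genotype ratio differed between the sites could not be tested.

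The other galectin genes differed little. LGALS3BP, a secreted glycoprotein that binds LGALS3, was 55.0 and 52.7 FPKM above the lesion in the groups labelled synj1+/+ and synj1+/-, and 74.1 and 64.0 FPKM below. Its log2 ratios were -0.06 and -0.21. LGALS8, a galectin with a pair of sugar-binding domains that marks broken endosomes for autophagy, was 629 and 608 FPKM above and 640 and 576 FPKM below. Its log2 ratios were -0.05 and -0.15. LGALS9, a lectin known to bind the receptor HAVCR2 (TIM-3), was the exception in direction, with 15.4 and 16.4 FPKM above and 20.3 and 21.6 FPKM below. The LGALS9 log2 ratio was 0.08 at each site. LGALS3BP lies at chr11:118392751-118402092, LGALS8 at chr13:12439415-12464944 and LGALS9 at chr11:78962974-78984946, all on the minus strand. LGALS8 shares exon bases with HEATR1 on the opposite strand, and its reads there cannot be told apart from those of HEATR1.

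Above the lesion 0 of the 10 genes reached 1.5-fold in either direction, where 1.94% of all genes listed above were at least 1.5-fold lower and 0.791% at least 1.5-fold higher. By any amount, 9 of 10 were lower in the group labelled synj1+/-, where 51.0% of all genes were. Below the lesion 3 of 9 were at least 1.5-fold lower (MERTK, LGALS1 and LGALS3) and 0 were higher, where 4.38% of all genes were lower and 1.16% higher by that rule. By any amount, 8 of 9 were lower below the lesion, where 47.2% of all genes were. The median log2 ratio of the genes was -0.14 above and -0.30 below, and the median of all listed genes was 0.00 and 0.01. Nothing is read from these shares, since the genes were picked with these values known. The nearest gene outside 1.5-fold was MERTK above the lesion, at 1.41-fold lower. Below the lesion MERTK, at 1.58-fold lower, was the gene nearest to that limit from the inside, and PROS1, with a log2 ratio of -0.33, the nearest from the outside.

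**Figure D2:**
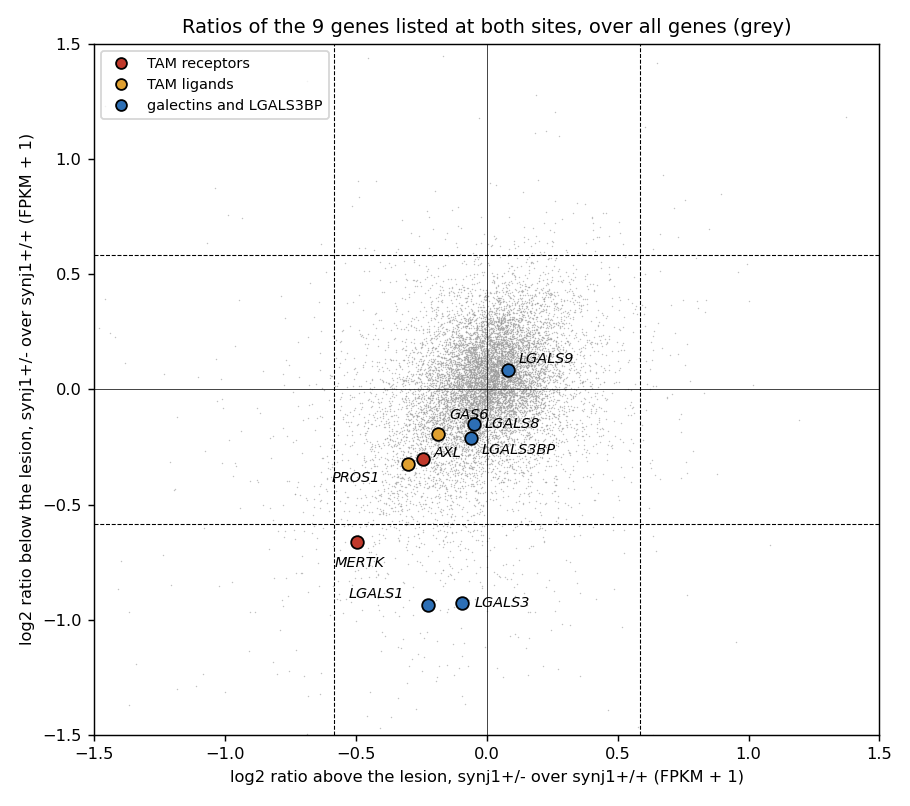
Log2 ratio of FPKM plus 1, synj1+/- over synj1+/+, above the lesion (x axis) and below it (y axis) for the 9 genes listed at both sites (red receptors, orange ligands, blue galectins) and all 12023 genes plotted (grey, with 56 of them outside the axes). Dashed lines mark 1.5-fold, and LGALS1 at -0.23 and -0.94 and LGALS3 at -0.09 and -0.93 lie far lower on the y axis than on the x axis, while MERTK is low on both.

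The libraries of the sites were reduced to different, though close, read numbers and may have been normalized apart. Levels above and below are therefore set side by side only. In the group labelled synj1+/+, FPKM plus 1 below the lesion was 1.53 times the value above for LGALS1, 1.48 times for LGALS3, 1.34 times for LGALS3BP, 1.31 times for MERTK and 1.30 times for LGALS9. In the group labelled synj1+/- these factors were 0.933 for LGALS1, 0.826 for LGALS3, 1.21 for LGALS3BP, 1.16 for MERTK and 1.30 for LGALS9. LGALS1 and LGALS3 thus stood higher below than above in the group labelled synj1+/+ and lower below than above in the group labelled synj1+/-. For AXL the factors were 1.18 and 1.13, and for GAS6 1.16 and 1.15. PROS1 and LGALS8 lay near the same level at both sites, with factors of 1.04 and 1.02 for PROS1 and 1.02 and 0.947 for LGALS8.

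The other receptors and bridging proteins that recognise phosphatidylserine were listed next, as the partners with which TAM receptors share their work. Above the lesion 19 of the 22 genes of this list had a value, and the median log2 ratio was -0.24. Of these, 7 were at least 1.5-fold lower in the group labelled synj1+/- and 0 higher. C1QA, C1QB and TREM2 lay only just past that limit, with log2 ratios of -0.587, -0.587 and -0.591. By the same rule 1.94% of all genes listed above were lower and 0.791% higher. Below the lesion 14 had a value, 6 were at least 1.5-fold lower and 0 higher, and the median was -0.36. There 4.38% of all listed genes were lower and 1.16% higher by that rule. The pathway lists were chosen with earlier results of these data known, so nothing is read from these counts. THBS1, a matrix protein that bridges dying cells to CD36, was 6.17 and 3.18 FPKM above (log2 ratio -0.78) and 7.55 and 6.62 FPKM below (log2 ratio -0.17). CD300LF, a phosphatidylserine receptor of myeloid cells, was 23.4 and 14.5 FPKM above (log2 ratio -0.66) and was not listed below. STAB1, a scavenger receptor of macrophages that binds phosphatidylserine, was 11.8 and 7.27 FPKM above and 20.2 and 8.01 FPKM below, with log2 ratios of -0.63 and -1.23.

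The complement C1q chains, which coat apoptotic cells and synapses, were lower in the group labelled synj1+/- at both sites. C1QC was 643 and 410 FPKM above and 938 and 600 FPKM below, with log2 ratios of -0.65 and -0.64. C1QB was 319 and 212 FPKM above and 480 and 299 FPKM below, with log2 ratios of -0.59 and -0.68. A further pair of receptors had opposite signs at the sites. CD36, a scavenger receptor for oxidised lipids and phosphatidylserine, was 47.0 and 65.3 FPKM above (log2 ratio 0.46) but 95.4 and 35.7 FPKM below (log2 ratio -1.39). CD300LB, an activating receptor for phosphatidylserine, was 5.30 and 6.05 FPKM above (log2 ratio 0.16) and 10.5 and 4.45 FPKM below (log2 ratio -1.08).

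By median, each list of genes that act with or after these receptors differed less than the receptor list at the same site. Of the 68 genes listed above in all the pathway lists together, 7 were at least 1.5-fold lower and 0 higher, with a median log2 ratio of -0.14. All 7 were phosphatidylserine receptors or bridging proteins, and C1QA, C1QB and TREM2 among them lay only just past the limit. Of the 59 listed below, 10 were at least 1.5-fold lower and 0 higher, with a median of -0.15. By the same rule 1.94% of all genes listed above and 4.38% of those listed below were lower. Engulfment signalling (ELMO, DOCK, RAC, CRK and VAV genes) had 0 of 12 past 1.5-fold at each site, with medians of -0.04 and -0.02. Enzymes of phosphatidylserine exposure (scramblases and flippases) had 0 of 5 past 1.5-fold at each site, with medians of -0.17 and 0.03. The TAM signalling, shedding and vitamin K list had medians of -0.10 and -0.25, and the nuclear receptor and efflux list -0.17 and -0.14. Galectin-bound glycoprotein and glycan genes had medians of -0.15 above and -0.32 below. The latter was as large as the median of -0.30 of the 9 examined genes listed below. Other galectins had medians of -0.20 and 0.02.

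The nuclear receptor and efflux, the TAM signalling, shedding and vitamin K, and the galectin-bound glycoprotein lists each held at least 1 gene past 1.5-fold below the lesion. ABCA1, the cholesterol exporter that cells induce when loaded with cholesterol, was 61.8 and 44.0 FPKM above and 88.9 and 52.2 FPKM below, with log2 ratios of -0.48 and -0.76. It was the 1 of 8 listed nuclear receptor and efflux genes past 1.5-fold there, and 0 of 9 were above. SOCS3, an inhibitor of cytokine signalling that TAM receptors induce, was 25.8 and 18.7 FPKM above and 26.7 and 15.3 FPKM below, with log2 ratios of -0.44 and -0.76. IFNAR2, a chain of the type I interferon receptor through which TAM receptors signal, was 46.8 and 42.6 FPKM above and 71.3 and 46.1 FPKM below, with log2 ratios of -0.13 and -0.62. SOCS3 and IFNAR2 were the 2 of 10 listed TAM signalling, shedding and vitamin K genes past 1.5-fold below, and 0 of 12 were above. PTPRC, the leukocyte surface phosphatase CD45 that LGALS1 binds, was 51.3 and 35.8 FPKM above and 53.5 and 33.7 FPKM below, with log2 ratios of -0.51 and -0.65. It was the 1 of 8 listed galectin-bound glycoprotein and glycan genes past 1.5-fold below, and 0 of 9 were above. Of the other galectin genes only LGALS4 and LGALSL had values, and neither passed 1.5-fold at either site.

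**Figure D3:**
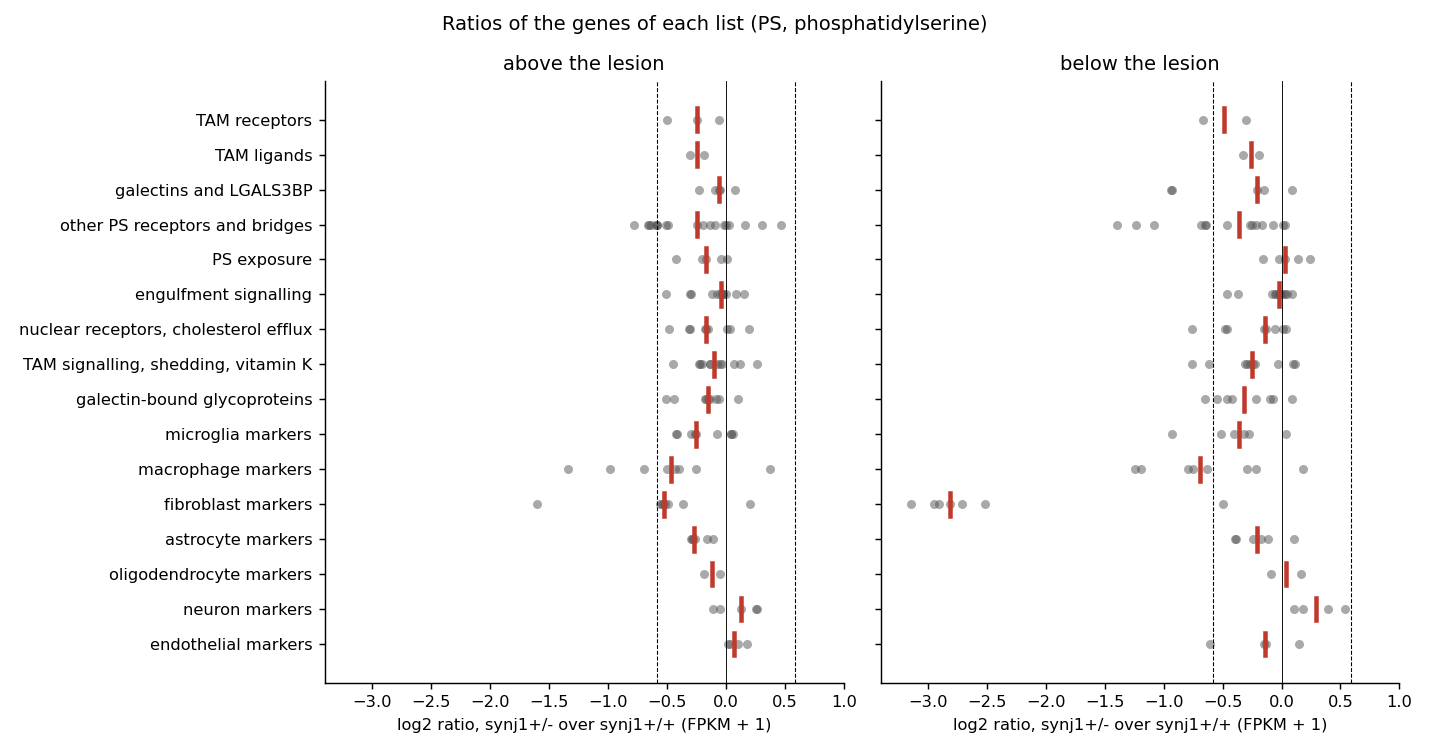
Log2 ratio of FPKM plus 1, synj1+/- over synj1+/+, for each listed gene (grey point) of the pathway and cell marker lists above (left) and below (right) the lesion, with the list's median as a red bar and 1.5-fold as dashed lines. The fibroblast marker median is -2.81 below and -0.52 above, macrophage markers have medians of -0.69 and -0.46, and neuron markers of 0.29 and 0.13.

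Marker genes of the cells in the segment differed between the groups as well. Of all listed genes, 1.94% above and 4.38% below were at least 1.5-fold lower, and 0.791% and 1.16% at least 1.5-fold higher. In bulk tissue, fewer cells of a type and less RNA per cell cannot be told apart. Summed FPKM covers the markers listed at a site, which can differ between the sites, and gives most weight to markers of high FPKM. The sums are therefore set against each other only between the groups of a site. Microglia markers had a median log2 ratio of -0.26 above, with 0 of 9 past 1.5-fold, and -0.36 below, with 1 of 6. Their summed FPKM was 865 and 747 above and 601 and 467 below, and CSF1R, the survival receptor of microglia, was 181 and 136 FPKM above and 167 and 138 FPKM below. SIGLECH, a microglial lectin, was 140 and 146 FPKM above and not listed below. Macrophage markers had a median of -0.46 above, with 3 of 8 at least 1.5-fold lower, and -0.69 below, with 5 of 8. Their summed FPKM was 1685 and 1286 above and 3341 and 1803 below. LYZ2, macrophage lysozyme, had log2 ratios of -0.70 and -1.24, and SPP1, osteopontin, -0.25 and -0.75. The monocyte marker CCR2 was not listed at either site.

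Fibroblast markers had medians of -0.52 above and -2.81 below. Above the lesion the order of fibroblast and macrophage markers turned when 5 was added to FPKM in place of 1, with medians of -0.30 and -0.43. Above the lesion 1 of 8 was at least 1.5-fold lower and their summed FPKM was 282 and 199, most of it from FN1. Below the lesion 6 of 7 were, with a sum of 459 and 74.9 FPKM. DCN, a small matrix proteoglycan, was 9.60 and 6.54 FPKM above and 138 and 18.8 FPKM below, and FN1, fibronectin, was 229 and 158 FPKM above and not listed below. The part of microglia, macrophages or fibroblasts in the ratios of MERTK, LGALS1 and LGALS3 was not tested.

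Astrocyte markers had medians of -0.27 and -0.21 with 0 of 6 past 1.5-fold at each site, and GFAP and AQP4 had log2 ratios of -0.29 and -0.29 above and -0.39 and -0.40 below. Neuron markers had medians of 0.13 and 0.29 with 0 past 1.5-fold, and SNAP25, a synaptic fusion protein, had log2 ratios of 0.25 and 0.39. Above the lesion 2 of the 5 listed neuron markers were lower, TUBB3 at -0.11 and NEFL at -0.05, and below it 0 of 4 were. The neuronal splicing factor RBFOX3 was 0.26 above and not listed below. Endothelial markers had medians of 0.07 above, with 0 of 4 past 1.5-fold, and -0.14 below, with 1 of 4 at least 1.5-fold lower, with FLT1 at 0.18 and 0.15 and CLDN5 at 0.04 and -0.15. The oligodendrocyte markers MOBP and MOG had log2 ratios of -0.05 and -0.18 above and -0.09 and 0.17 below. The Schwann cell marker PMP22 had log2 ratios of -0.15 and -0.21. Erythroid markers had a median of 2.17 above, where 5 of 5 were at least 1.5-fold higher, and 0.37 below, where 1 of 5 was. HBA-A1 and HBA-A2, alpha globin genes, were 103 and 95.4 FPKM in the group labelled synj1+/+ and 468 and 418 FPKM in the group labelled synj1+/- in the segment above. No T cell marker of 4 was listed, and no listed marker was at 0. GFAP, AQP4, MOBP and SNAP25, markers of astrocytes, oligodendrocytes and neurons, were listed at both sites, as the labelled tissue requires.

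The genes whose pattern over the 4 groups was most like that of MERTK, AXL, LGALS3 or LGALS1 were found among 11939 genes, by Euclidean distance between log2(FPKM plus 1) values centred on each gene's mean. With only 4 values a gene, and those values combining the same libraries for all genes, closeness is a description. MERTK was nearest to TSKU, SLC11A1, MPEG1, C3AR1 and TMEM273, at distances of 0.0616 to 0.0846. MPEG1, a pore-forming protein of macrophages and microglia, was 332 and 230 FPKM above and 424 and 286 FPKM below. C3AR1, the receptor for complement C3a, was 10.3 and 7.52 FPKM above and 14.8 and 9.02 FPKM below.

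LGALS3 was nearest to IL1A, CCL3, AIF1, CXADR and FNDC3B, at distances of 0.0637 to 0.119, and LGALS1 to CCL3, CLEC5A, S100A11, RPS27L and IL1A, at 0.0716 to 0.109. IL1A and CCL3, an inflammatory cytokine and a chemokine, were thus near both galectins. IL1A was 3.65 and 3.11 FPKM above and 5.79 and 2.49 FPKM below, and CCL3 was 6.45 and 5.83 FPKM above and 10.8 and 5.11 FPKM below. AIF1, which encodes the microglial and macrophage protein Iba1, was 17.2 and 17.7 FPKM above and 26.0 and 13.2 FPKM below. The genes nearest to AXL, SLC16A10, LY6C1, ZFP825, MRPL33 and TENT5A, lay at 0.0126 to 0.0303.

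**Figure D4:**
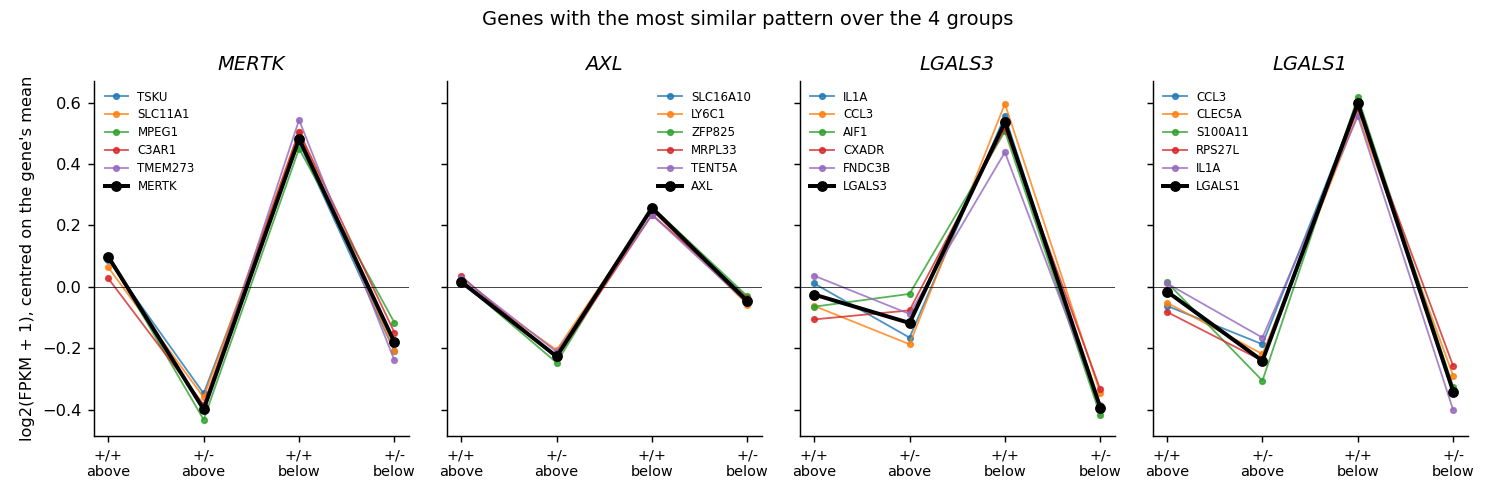
Log2(FPKM plus 1) centred on the mean of each gene (y axis) in the 4 groups (x axis) for MERTK, AXL, LGALS3 and LGALS1 (black) and the 5 genes nearest to each (colours), 1 value per gene and group. Every panel has its highest point in synj1+/+ below the lesion, and LGALS3 and LGALS1 have their lowest in synj1+/- below, while MERTK and AXL have theirs in synj1+/- above.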

How the data were processed

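RNA-seq was made by the study from 12 libraries in 4 groups of 3, assigned to groups from their labelled genotype and site. Per the study's methods, RNA was taken with TRIzol and libraries were made with an unstranded TruSeq kit, reads of each site were reduced at random to the smallest library of that site, and expression was summarised with upper quartile normalization. The submitters' processing notes name STAR 2.5.4b, Cuffdiff 1.3.0 and GRCm38.p6. The authors deposited FPKM values with 1 added, as 1 value per gene, site and genotype that combines the group's libraries. The lowest value was exactly 1, and 1 was subtracted here to give FPKM. With 0 columns of single samples in the table, no spread, confidence interval or test could be made, and library depth is not known from the table. The deposited table also holds the authors' own comparison (fold changes with their p-values and q-values), as does a shorter list that passed their threshold, and neither was used.

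The log2 ratio of FPKM plus 1 was computed for all genes with Python 3.11.15, numpy 2.4.6 and pandas 2.3.3, tested on simulated data, and set against 1.5-fold. The members and lists were chosen with earlier results of these data known. Named were all members, SYNJ1 and APOE, of each pathway list at most the 4 genes past 1.5-fold with the largest log2 ratio at a site and an FPKM of at least 1 in a group, of each marker list the 2 genes of highest mean FPKM (not every gene that meets this rule is reported here), and the 5 nearest patterns of MERTK, AXL, LGALS3 and LGALS1 among genes with an FPKM of at least 1 in all 4 groups. Alternatives were other pseudocounts, centring, rescaling, filters and fold limits. Positions are from GENCODE M21 (GRCm38).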

Additional observations from a re-analysis of the deposited data

How the results depend on the processing

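Results were recomputed with 0.1 or 5 added to FPKM in place of 1, with ratios centred on the median of all genes, with the upper quartile of both groups made equal, with limits of 2-fold or of a log2 ratio of 0.32, with an FPKM of at least 1 in both groups, with means in place of medians, and with only the genes listed at both sites. A ratio was taken as moved when it crossed 1.5-fold or differed by that factor, and a count when it left 1.5 times its value. Of 344 such values, 341 stayed within these limits and 3 moved, and no ratio past 1.5-fold changed sign. The counts of pathway and marker genes past 1.5-fold were not recomputed and are not among these values. These limits are wide for the 10 genes, whose log2 ratios moved by at most 0.087 (MERTK below the lesion, with 5 added). The share that stayed therefore says little about them. The median log2 ratio of the other galectins below the lesion, 0.02, was -0.0013 with the upper quartiles made equal. With 5 added, the log2 ratio of MERTK below the lesion was -0.58 and no longer past 1.5-fold. At a log2 ratio of 0.32, 1 gene (MERTK) was lower above the lesion, as were 7.45% of all genes. At 2-fold, 0 were lower below the lesion, as were 1.30% of all genes. No scaling changed the sign of a ratio of the 10 genes. No paired analysis was possible because the values combine the libraries of a group, and for the same reason no library could be left out.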

Other observations

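FPKM in the table depended on how many transcript models RefSeq lists for a gene. Across genes, which are not independent replicates and share the same libraries, Spearman's rho between FPKM in the table and the number of models was 0.604 above the lesion (13535 genes) and 0.580 below (12246 genes). The median FPKM above was 10.5 for 3506 genes with 1 model and 469 for 487 genes with at least 20. LGALS8 has 17 models and SYNJ1 34, while LGALS1, GAS6 and LGALS3BP have 1 each. The log2 ratio between genotypes did not follow the number of models in this way, with rho of -0.02 above and 0.04 below. The order of FPKM between genes in this table, such as LGALS8 over LGALS3, therefore carries no statement on which gene is more expressed, and the cause was not tested.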
